A study of Mus musculus with 6 samples.

Results

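Granzymes, perforin and serglycin are the characteristic products of the cytotoxic granule. The 10 genes described here are Gzma, Gzmb, Gzmc, Gzmd, Gzme, Gzmf, Gzmg, Gzmk, Prf1 and Srgn. They were chosen by gene symbol as cytotoxic granule genes, and all 10 were found among the 23185 named genes on the arrays. The study used a mouse line of group 2 innate lymphoid cells (ILC2s), tissue lymphocytes that lack antigen receptors and make type 2 cytokines. All cells came from C57BL/6J ILC2 lines grown with 10 ng/ml of the cytokines IL-2 and IL-33, and were transduced with a lentiviral CRISPR vector carrying GFP. GFP-positive cells were sorted at day 6. The vector carried either a guide directed at Myc (3 arrays, labelled Myc KO) or a non-targeting guide (3 arrays, control), so the control cells had also been transduced and sorted. The GFP gate selects cells with the vector, not cells with an edited Myc gene. The labels name an ILC2 line and do not say how many clones or animals it came from, nor do they name separate cultures for the replicates. The p-values therefore measure the spread between these arrays, which may be technical.

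Cytotoxic granules are secretory lysosomes of natural killer (NK) cells and killer T cells. Perforin forms pores in the membrane of a target cell, granzymes are serine proteases that enter the target and cleave its proteins, and serglycin is the proteoglycan core on which both are stored at acidic pH. Granzymes are made as inactive precursors and are activated in the granule by cathepsin C. Several granzymes also occur in cells that do not kill, where they are known to cleave extracellular substrates.

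Values are log2 values made by RMA, a procedure that corrects background, gives all arrays the same distribution and summarises the probes of a gene. Over all named genes the lower quartile of an array lay between 2.05 and 2.13, the median between 3.32 and 3.38 and the upper quartile between 5.77 and 5.86. The upper quartile was 5.77 to 5.81 on the arrays labelled Myc KO and 5.83 to 5.86 on the control arrays. For the lower quartile these ranges were 2.10 to 2.13 and 2.05 to 2.08, so the groups differed slightly in scale. What this adds to the differences of bright or dim genes was not tested. Brightness depends on the probes as well as on the transcript, so a gene's place in this distribution is a description and not an amount. For a pair of arrays, the SD of their log2 differences over all genes, averaged per array, was 0.201 to 0.237 within a group and 0.256 to 0.272 between groups, and no array stood apart. Of 12 ILC2 markers 8 lay above the upper quartile, among them Gata3, Icos and Il2ra. Rora averaged 4.004 and Thy1 3.26, near the medians, and Ptgdr2 averaged 2.35 and Il17rb 2.10, near the lower quartiles, so these 4 markers were not bright. Il5, the gene of a type 2 cytokine, was at 9.94, 10.05 and 10.06 on the arrays labelled Myc KO, against 9.51, 9.57 and 9.49 on the control arrays, and rose 1.40-fold (limma's adjusted p = 0.0386), where 1 of the 12 markers rose and 0 fell, beside 0.254% and 0.198% of all genes. Of the 12 markers 6 differences were positive and 6 negative, with a median of 0.012. Without adjustment 4 were higher and 3 lower at p under 0.05 in limma, beside 6.97% and 7.91% of all genes. The groups did not overlap for 7 of the 12, beside 19.8% of all genes. This list was chosen with earlier results of these data known. The 3 lower ones were Gata3 (−0.25), Il7r (−0.22) and Ptprc (−0.17), each with groups that did not overlap. Myc itself was at 9.55, 9.79 and 9.73 on the arrays labelled Myc KO, against 9.27, 9.33 and 9.39 on the control arrays. Its mRNA was thus not lower in the targeted group, with limma's adjusted p = 0.127 for the difference. An edited gene can still be transcribed, so the mRNA says little about whether the labels are right, and every direction below rests on them.

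The granule genes ranged from some of the brightest genes on the arrays to genes near the floor, and no member differed between the groups beyond limma's threshold. Srgn, Gzmb, Prf1 and Gzma lay above the upper quartile on every array. Gzmk lay just above the medians. The 5 genes Gzmc, Gzmd, Gzme, Gzmf and Gzmg averaged below the lower quartile over all genes. Of the 10 members 0 rose and 0 fell at limma's adjusted p under 0.05, where 0.453% of all genes passed in either direction. At an unadjusted p under 0.05 in limma, 2 members were higher (Gzma and Gzme) and 1 was lower (Gzmg), beside 6.97% and 7.91% of all genes. These shares also apply to the unadjusted counts of every list below. The median log2 difference of the members, arrays labelled Myc KO minus control, was 0.093 with 7 of 10 positive. It was 0.020 with 6 of 10 positive without control replicate 3, and 0.058 with 7 of 10 positive without Myc KO replicate 2. For all genes tested the median was 0.0077 with 52.3% positive.

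**Figure D1:**
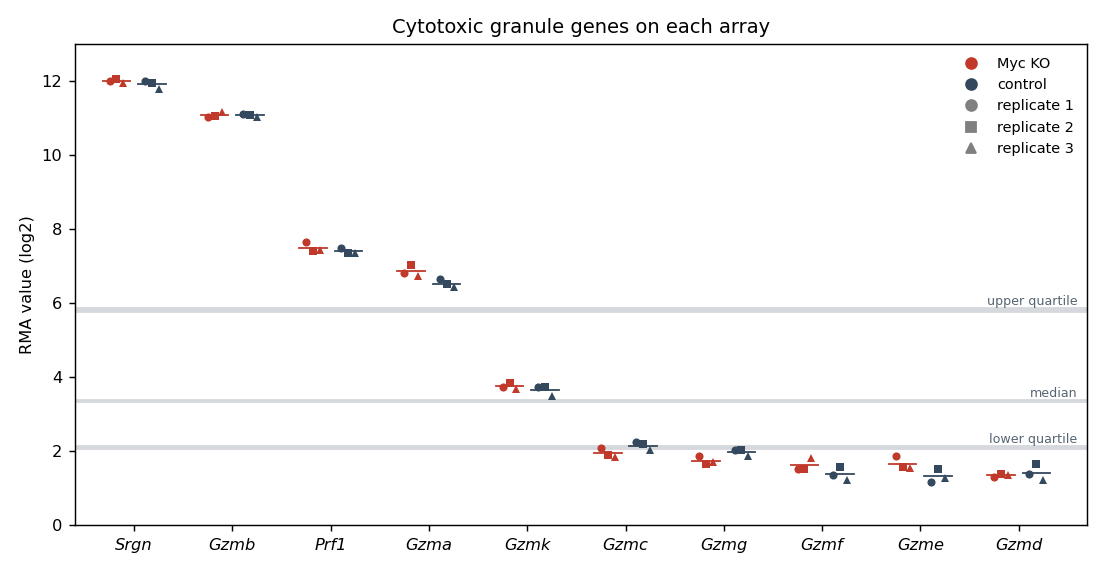
Log2 RMA value (vertical axis) of each granule gene (horizontal axis) on each array. Points are arrays, short lines are group means of 3 arrays, red stands for arrays labelled Myc KO and dark blue for control, and the grey bands give the range over arrays of the lower quartile, median and upper quartile of all named genes. Srgn, Gzmb, Prf1 and Gzma lie above the upper quartiles and Gzmc to Gzmd average below the lower quartile, and Gzma and Gzme are the members whose groups do not overlap.

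Gzmb, which encodes granzyme B, a protease that cleaves after aspartate and activates caspases, was among the brightest genes of the ILC2 line in both groups. It was at 11.03, 11.06 and 11.16 on the arrays labelled Myc KO, against 11.11, 11.07 and 11.03 on the control arrays. Only 35 of the 23185 genes had a higher mean. All 3 control values lay within the range of the arrays labelled Myc KO. The log2 difference was 0.014 ± 0.062 (SE), and its 95% confidence interval ran from a 0.911-fold to a 1.12-fold ratio, arrays labelled Myc KO over control. Signals near the top of the array's range can be compressed, and this interval does not cover that. The difference was negative after median centring (−0.010) and cyclic loess (−0.020). In bulk RNA, fewer cells with a transcript and less transcript per cell cannot be told apart, here and below.

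Gzmb is the last gene of a granzyme and mast cell protease cluster on chromosome 14, and its promoter window is shown because its neighbours on the same strand were at background. The window is that of RefSeq for GRCm38.p6, with 250 bases before and 50 after the annotated start. Capitals mark every match, on either strand, to any of 6 short motifs that transcription factors are known to bind. The motif of STAT factors, which act downstream of IL-2, was searched as TTCNNNGAA. For RUNX factors the letters searched were TGTGGT. AP-1 is the dimer of FOS and JUN proteins that activation of a lymphocyte brings about, and its motif was searched as TGANTCA. The other 3 motifs, of which this window held 0 matches, are given after it. The window below lies at chr14:56262285-56262584 on the minus strand.
Gzmb promoter: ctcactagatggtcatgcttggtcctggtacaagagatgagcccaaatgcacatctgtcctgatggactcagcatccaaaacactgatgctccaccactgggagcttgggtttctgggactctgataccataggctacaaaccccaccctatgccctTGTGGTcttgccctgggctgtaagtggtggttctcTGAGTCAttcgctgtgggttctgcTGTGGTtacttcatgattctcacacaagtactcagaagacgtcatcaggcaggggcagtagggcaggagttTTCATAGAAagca

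The Gzmb window held the RUNX motif at 93 and at 34 bases upstream of the start (first base of each match), the AP-1 motif at 58 bases upstream and the STAT motif beginning 37 bases downstream. The E-box of MYC and MAX was searched as CACGTG. The motif of GATA factors, which include the ILC2 regulator GATA3, was searched as AGATAA. T-box factors, which include the killer cell regulators T-bet and EOMES, were searched as AGGTGTGA. RUNX and AP-1 factors are known to act at the Gzmb promoter in mouse T cells. Among all 32851 RefSeq windows of this length, the RUNX motif was found in 16.8%, the AP-1 motif in 7.81%, the STAT motif in 8.3% and the E-box in 7.15%. The GATA motif was found in 11.2% and the T-box motif in 1.28%. Of the 11 windows of the 10 members (Srgn has a pair), 0 held the E-box, the GATA motif or the T-box motif as searched. The AP-1 and STAT motifs were each found in that of Gzmb alone. All these counts are for the letters given, and other forms of the motifs were not searched, so a site may be present without a match. The RUNX motif stood in 9 of the 11 windows, but 5 of those belong to similar paralogs and are not independent. No matches to different motifs overlapped in the Gzmb window.

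Gzma, which encodes granzyme A, a tryptase-like granzyme, was the bright member with the largest difference between the groups. It was at 6.81, 7.02 and 6.72 on the arrays labelled Myc KO, against 6.64, 6.51 and 6.42 on the control arrays. All 3 arrays labelled Myc KO lay above all 3 control arrays. The mean was 6.85 ± 0.16 on the arrays labelled Myc KO and 6.52 ± 0.11 on the control arrays (SD, n = 3 each), a 1.26-fold ratio with a 95% confidence interval of 1.07 to 1.48. Limma gave an unadjusted p of 0.014 and an adjusted p of 0.216, so Gzma did not pass. Permuting the arrays exactly (two-sided) gave p = 0.1, and no smaller value is possible with 3 arrays per group. The groups did not overlap for 2 of the 10 members, both higher on the arrays labelled Myc KO, beside 9.25% of all genes in that direction and 19.8% in either. Gzma stayed positive under all 14 alternatives, between 0.24 and 0.39, and passed under none of them (limma's adjusted p from 0.1 to 0.415).

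Gzmk, which encodes granzyme K, lies beside Gzma on chromosome 13 and is also a tryptase-like granzyme. It was at 3.73, 3.83 and 3.68 on the arrays labelled Myc KO, against 3.73, 3.74 and 3.48 on the control arrays. The groups overlapped, and the log2 difference of 0.096 ± 0.090 (SE) had a 95% confidence interval of −0.12 to 0.31. The Gzma window (chr13:113100932-113101231, minus strand) is shown because Gzma had the largest difference among the bright members, and it held 1 match, to the RUNX motif on the opposite strand, where the Gzmk window held 0.
Gzma promoter: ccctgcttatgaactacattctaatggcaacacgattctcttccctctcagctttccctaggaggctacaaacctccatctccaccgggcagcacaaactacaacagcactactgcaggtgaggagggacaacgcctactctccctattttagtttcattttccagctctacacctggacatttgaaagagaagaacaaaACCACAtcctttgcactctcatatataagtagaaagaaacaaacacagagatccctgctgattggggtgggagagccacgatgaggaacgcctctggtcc

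The 5 granzymes Gzmc, Gzmd, Gzme, Gzmf and Gzmg, found in rodents and expressed in activated killer cells, were close to the floor of the arrays in both groups. Gzmc was at 2.09, 1.90 and 1.83 on the arrays labelled Myc KO, against 2.23, 2.18 and 2.02 on the control arrays. Gzmg was at 1.87, 1.64 and 1.69 on the arrays labelled Myc KO, against 2.02, 2.02 and 1.87 on the control arrays. In both genes the lowest values were on arrays labelled Myc KO, and the groups met or overlapped. Gzme was at 1.87, 1.55 and 1.54 on the arrays labelled Myc KO, against 1.16, 1.51 and 1.27 on the control arrays. Gzmf was at 1.51, 1.51 and 1.81 on the arrays labelled Myc KO, against 1.34, 1.56 and 1.23 on the control arrays. Gzme did not overlap between the groups and Gzmf did. Gzmd was at 1.29, 1.39 and 1.35 on the arrays labelled Myc KO, against 1.39, 1.63 and 1.204 on the control arrays, with full overlap. The log2 differences of these 5 ran from −0.24 for Gzmg to 0.34 for Gzme, with limma's adjusted p between 0.275 and 0.815. The differences were positive for Gzme and Gzmf and negative for Gzmc, Gzmd and Gzmg.

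The paralogs resemble each other closely in sequence, so a probe can match several of them. Neither probe nor transcript sequences were used here. The promoter windows lie mostly before the start, so their identity does not measure this. In pairwise global alignments of the promoter windows, Gzmd and Gzme were identical at 281 of 301 aligned columns (93.4%), the highest of all pairs of members. Among Gzmc to Gzmg identity ran from 74.6% (Gzmc and Gzmf) to 93.4%. Against Gzmb these 5 windows were identical at 46.8% to 51.7% of columns, a range that also holds unrelated pairs such as Gzmb and Prf1 (50.6%). The Gzmc window is shown as that of the nearest neighbour of Gzmb, and the Gzmd and Gzme windows as the most alike pair. All 3 are on the minus strand, and each held the RUNX motif in both orientations.
Gzmc promoter, chr14:56234608-56234907: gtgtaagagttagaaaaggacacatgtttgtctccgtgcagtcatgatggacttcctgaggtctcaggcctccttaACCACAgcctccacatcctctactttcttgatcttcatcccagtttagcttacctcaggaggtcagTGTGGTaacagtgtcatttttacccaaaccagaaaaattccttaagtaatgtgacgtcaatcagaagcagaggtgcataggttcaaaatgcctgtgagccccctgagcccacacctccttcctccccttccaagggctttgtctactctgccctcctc
Gzmd promoter, chr14:56132544-56132843: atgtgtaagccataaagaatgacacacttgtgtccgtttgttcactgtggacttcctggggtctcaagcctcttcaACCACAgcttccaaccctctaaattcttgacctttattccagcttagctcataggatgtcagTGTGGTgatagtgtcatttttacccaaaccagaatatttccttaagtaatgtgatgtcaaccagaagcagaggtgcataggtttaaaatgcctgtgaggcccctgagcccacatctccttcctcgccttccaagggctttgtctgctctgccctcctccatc
Gzme promoter, chr14:56120576-56120875: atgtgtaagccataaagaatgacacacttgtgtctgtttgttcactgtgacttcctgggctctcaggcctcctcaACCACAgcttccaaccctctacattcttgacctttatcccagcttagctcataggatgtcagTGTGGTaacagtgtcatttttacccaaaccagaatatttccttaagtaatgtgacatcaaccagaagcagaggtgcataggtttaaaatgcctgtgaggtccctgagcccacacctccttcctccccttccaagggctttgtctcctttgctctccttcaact

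Within the cluster the bright genes were at its edge and in its middle. RefSeq lists 15 protein-coding genes from Cma1 to Gzmb, all 15 measured, and 2 of them averaged above the upper quartile of all genes: Gzmb and Mcpt8, which encodes a basophil granule protease related to the granzymes. Mcpt8 was at 7.34, 7.44 and 7.82 on the arrays labelled Myc KO, against 8.09, 8.05 and 7.85 on the control arrays. The groups did not overlap, with replicate 3 of each group close together, and the log2 difference was −0.47 ± 0.14 (SE). Mcpt8 did not pass (limma's adjusted p = 0.207). Gzmn, a further granzyme gene of the cluster, was at 2.75, 2.37 and 2.53 on the arrays labelled Myc KO, against 2.37, 2.73 and 2.79 on the control arrays. Gzmm, on chromosome 10, was at 2.78, 2.77 and 2.99 on the arrays labelled Myc KO, against 2.64, 2.65 and 2.82 on the control arrays. Both lay below the array medians with overlapping groups, at log2 differences of −0.081 and 0.15. The 8 mast cell protease and cathepsin G genes of the cluster had a median log2 difference of −0.081, with 0 past limma's threshold in either direction. Without adjustment, 1 was higher and 1 lower at p under 0.05.

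**Figure D2:**
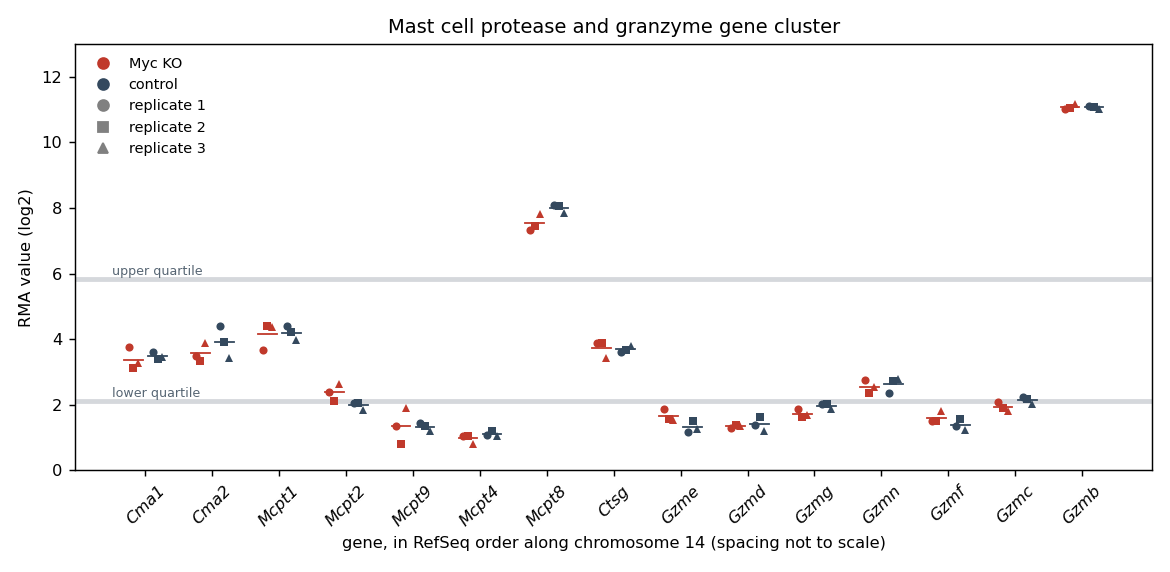
Log2 RMA value (vertical axis) of the 15 protein-coding genes from Cma1 to Gzmb, in RefSeq order along chromosome 14 with spacing not to scale (horizontal axis). Points are arrays, short lines are means of 3 arrays, red stands for arrays labelled Myc KO and dark blue for control, and grey bands give the array quartiles. Gzmb and Mcpt8 lie above the upper quartiles, and the granzyme genes from Gzme to Gzmc average below the lower quartile except Gzmn, which averages below the median.

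Prf1, which encodes perforin, was above the upper quartile in both groups. It was at 7.64, 7.41 and 7.43 on the arrays labelled Myc KO, against 7.48, 7.36 and 7.34 on the control arrays. Replicate 1 was the highest array of each group and the groups overlapped. The log2 difference was 0.098 ± 0.084 (SE), a ratio of 1.07-fold with a 95% confidence interval of 0.931 to 1.23, and limma's adjusted p was 0.615. Without Myc KO replicate 1 the log2 difference was 0.024. The Prf1 window lies at chr10:61297586-61297885 on the plus strand and is shown beside those of the granzymes because perforin is needed for granzymes to reach the cytosol of a target. It held 1 match, the RUNX motif on the opposite strand at 130 bases upstream of the start.
Prf1 promoter: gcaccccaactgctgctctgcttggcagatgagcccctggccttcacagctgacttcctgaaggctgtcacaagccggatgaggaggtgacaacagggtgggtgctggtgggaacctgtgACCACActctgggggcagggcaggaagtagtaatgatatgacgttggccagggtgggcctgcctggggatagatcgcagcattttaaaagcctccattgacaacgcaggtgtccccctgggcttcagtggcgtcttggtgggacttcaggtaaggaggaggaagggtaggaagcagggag

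Srgn, which encodes the serglycin core protein, was one of the brightest genes in the table, with 2 genes above it by mean. It was at 11.99, 12.05 and 11.95 on the arrays labelled Myc KO, against 11.99, 11.95 and 11.78 on the control arrays. The groups overlapped, and control replicate 3 was the lowest. The log2 difference was 0.090 ± 0.074 (SE), a ratio of 1.06-fold with a 95% confidence interval of 0.941 to 1.204, and limma's adjusted p was 0.6. At the top of the array's range, signals can be compressed.

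**Figure D3:**
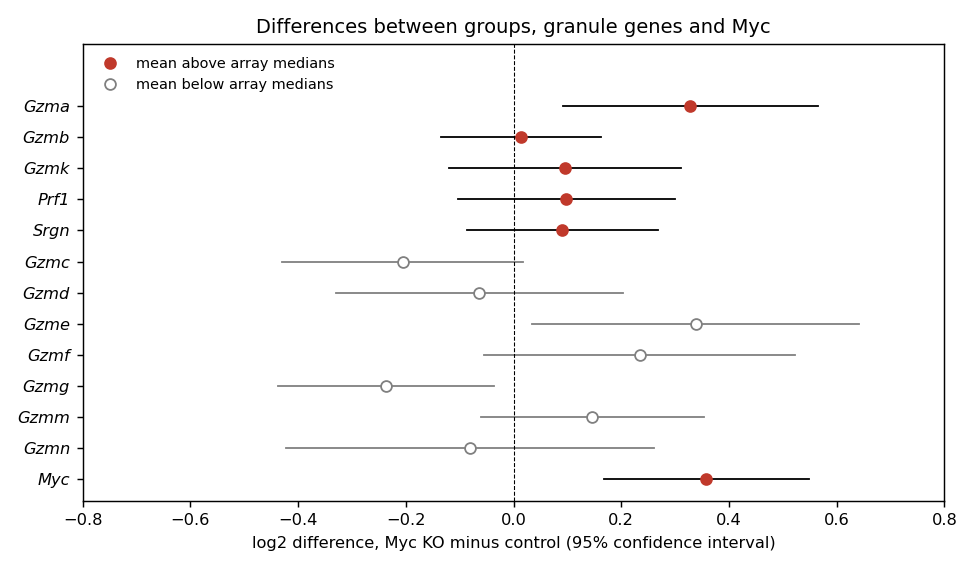
Log2 difference, arrays labelled Myc KO minus control (horizontal axis), of the 10 granule genes, the further granzymes Gzmm and Gzmn, and Myc (vertical axis), from limma with 95% confidence intervals, 3 arrays per group. Filled points are genes whose mean lies above the array medians and open points those below. Gzma, Gzme, Gzmg and Myc have intervals that leave out 0, and none of the genes shown passes limma's adjusted p under 0.05.

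One control array stood low across the granule genes. Control replicate 3 was the lowest control in 9 of the 10 members (Gzme was the exception), where it was the lowest control for 30.8% of all genes. This is a description, with no test. Without control replicate 3 the log2 difference of Gzma was 0.28 (limma's adjusted p = 0.415), that of Gzmk 0.011, that of Prf1 0.072 and that of Srgn 0.028. The values for Gzmk and Srgn moved by more than 1.5 times, and neither passed with or without that array.

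The genes that load and process the granule were bright and did not differ beyond the threshold. Of 10 genes of granzyme processing and sorting 0 passed limma's threshold in either direction, and 9 lay above the upper quartile. At an unadjusted p under 0.05, 1 was higher and 0 lower. Calr, which encodes the calcium-binding chaperone calreticulin, averaged 10.90 ± 0.0080 on the arrays labelled Myc KO and 10.83 ± 0.093 on the control arrays (SD, n = 3 each). Ctsc, which encodes the cathepsin C that activates granzymes, averaged 10.60 ± 0.050 on the arrays labelled Myc KO and 10.54 ± 0.054 on the control arrays. Gnptab, which encodes a subunit of the enzyme that starts the mannose 6-phosphate sorting tag, had the smallest p of the list, at 5.31 ± 0.064 on the arrays labelled Myc KO and 5.13 ± 0.043 on the control arrays (limma's adjusted p = 0.261). The median log2 difference of the list was 0.066.

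Genes of granule transport and exocytosis were more often lower than higher on the arrays labelled Myc KO, without passing. Of 27 measured, 20 had a negative difference and 7 a positive one (median −0.054). For all genes 52.3% were positive, with a median of 0.0077. In this list 0 passed in either direction. There were 4 lower and 0 higher at an unadjusted p under 0.05 in limma, beside 7.91% and 6.97% of all genes. Of the 27, 20 averaged above the upper quartile. The arrays' upper quartiles were 5.77 to 5.81 for those labelled Myc KO and 5.83 to 5.86 for control, and the part of this in the list's direction was not tested. Stxbp2, whose product Munc18-2 is needed for the fusion of cytotoxic granules, was at 7.38, 7.36 and 7.37 on the arrays labelled Myc KO, against 7.69, 7.66 and 7.68 on the control arrays. The arrays of a group lay much closer to each other than to the other group, with a log2 difference of −0.31 ± 0.051 (SE) and limma's adjusted p = 0.0735. Sytl1, which encodes a synaptotagmin-like effector of RAB27, was at 5.70, 5.73 and 5.63 on the arrays labelled Myc KO, against 6.03, 6.06 and 6.23 on the control arrays (−0.42 ± 0.074 SE, adjusted p = 0.0823 in limma). The groups of both genes did not overlap. Both passed when limma's prior variance followed the intensity (adjusted p = 0.0179 for Stxbp2 and 0.0439 for Sytl1). They also passed when the dimmer genes were left out of the fit (0.023 and 0.0275). Calls over the whole table, 59 higher and 46 lower as reported, were 162 and 208 under the first setting. Under the second they were 204 and 345. Neither gene passed under any other alternative, and limma's adjusted p of Stxbp2 was 0.233 with a replicate block. Rab7, a late endosome GTPase gene and the brightest of the list, had a log2 difference of 0.13 ± 0.067, and Unc13d, which encodes the priming factor Munc13-4, one of −0.13 ± 0.11 (SE). Neither passed.

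Genes that build the glycosaminoglycan chains of serglycin and other proteoglycans were mixed. Of 25 measured 0 passed limma's threshold, 1 was higher and 4 were lower at an unadjusted p under 0.05, 12 were positive and 13 negative, and the median was −0.0039. Ext1, which encodes a polymerase of heparan sulfate, was at 7.96, 7.95 and 8.01 on the arrays labelled Myc KO, against 7.69, 7.63 and 7.65 on the control arrays. The groups lay well apart, with a log2 difference of 0.32 ± 0.054 (SE) and limma's adjusted p = 0.0767. Papss1, which makes the sulfate donor, differed by −0.32 ± 0.058 (SE, adjusted p = 0.0885 in limma). Ext1 and Papss1 passed in opposite directions when limma's prior variance followed the intensity (adjusted p = 0.0202 and 0.0444), and when the dimmer genes were left out (0.0248 and 0.0295). Both settings raised the calls over the whole table, as given above for Stxbp2 and Sytl1. Under no other alternative did either pass, and limma's adjusted p of Ext1 was 0.233 with a replicate block. Chsy1, a chondroitin synthase gene and the brightest of the list, had a log2 difference of −0.12 ± 0.055 (SE) and did not pass.

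Serpins listed as granzyme inhibitors were dim. Of 12 measured 0 passed limma's threshold, 0 lay above the upper quartile and 6 lay below the lower quartile. Without adjustment, 2 were higher and 0 lower at p under 0.05. Of the 12 differences 9 were positive and 3 negative, with a median of 0.13, beside 0.0077 for all genes. The groups did not overlap for 4 of the 12, all higher, beside 9.25% of all genes in that direction. Serpinb6a, the brightest, averaged 5.30 ± 0.060 on the arrays labelled Myc KO and 5.38 ± 0.19 on the control arrays. Serpinb9, which encodes an inhibitor of granzyme B in mouse, averaged 3.82 ± 0.19 on the arrays labelled Myc KO and 3.97 ± 0.36 on the control arrays (SD, n = 3 each), with overlapping groups. Serpina3f had the smallest p of the list, with a log2 difference of 0.21 ± 0.070 (SE) at a level below the lower quartile (limma's adjusted p = 0.249). Several of these serpins are paralogs of each other, and the probe sequences were not used here, so their values are uncertain.

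Other effector genes of killer cells were mostly dim. Of 7 measured 0 passed limma's threshold, 0 were higher and 1 was lower at an unadjusted p under 0.05, and 2 lay above the upper quartile. Cst7, which encodes cystatin F, an inhibitor of cathepsin C, averaged 8.99 ± 0.013 on the arrays labelled Myc KO and 9.07 ± 0.13 on the control arrays. Tnfsf10, the gene of the death ligand TRAIL, averaged 6.76 ± 0.076 on the arrays labelled Myc KO and 6.97 ± 0.13 on the control arrays, with groups that did not overlap and limma's adjusted p = 0.309. Nkg7, a granule membrane protein gene of NK and killer T cells, averaged 3.35 on the arrays labelled Myc KO and 3.26 on the control arrays, near the array medians. Ifng averaged 2.02 on the arrays labelled Myc KO and 2.15 on the control arrays, and Fasl 1.86 on the arrays labelled Myc KO and 1.95 on the control arrays, near or below the lower quartiles.

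Among regulators of cytotoxic genes, 1 rose and 1 fell out of 22 measured, where 0.254% of all genes rose and 0.198% fell. The list was chosen with earlier results of these data known, so these counts only describe it. Bcl6, which encodes a transcriptional repressor, was at 5.95, 6.08 and 6.07 on the arrays labelled Myc KO, against 6.56, 6.53 and 6.53 on the control arrays. It fell with a log2 difference of −0.50 ± 0.062 (SE, limma's adjusted p = 0.0361), and the groups lay far apart. Irf4, an activation-induced factor gene, rose 1.72-fold (limma's adjusted p = 0.0405). The T-box genes Tbx21 and Eomes, known to drive cytotoxic genes in NK and killer T cells, were at or below the medians, with Tbx21 at 2.997 ± 0.27 on the arrays labelled Myc KO and 3.23 ± 0.087 on the control arrays. Eomes averaged 1.95 ± 0.096 on the arrays labelled Myc KO and 1.85 ± 0.018 on the control arrays (SD, n = 3 each). Runx3, whose product binds the RUNX motif, averaged 7.36 ± 0.11 on the arrays labelled Myc KO and 7.60 ± 0.14 on the control arrays, above the upper quartile, and did not pass (limma's adjusted p = 0.307). Id2, which encodes an inhibitor of E proteins, was the brightest of the list, at a log2 difference of 0.028 ± 0.072 (SE). The list's median was −0.099, with 16 of 22 negative, where 52.3% of all genes were positive. In this list 16 of 22 genes averaged above the upper quartile.

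**Figure D4:**
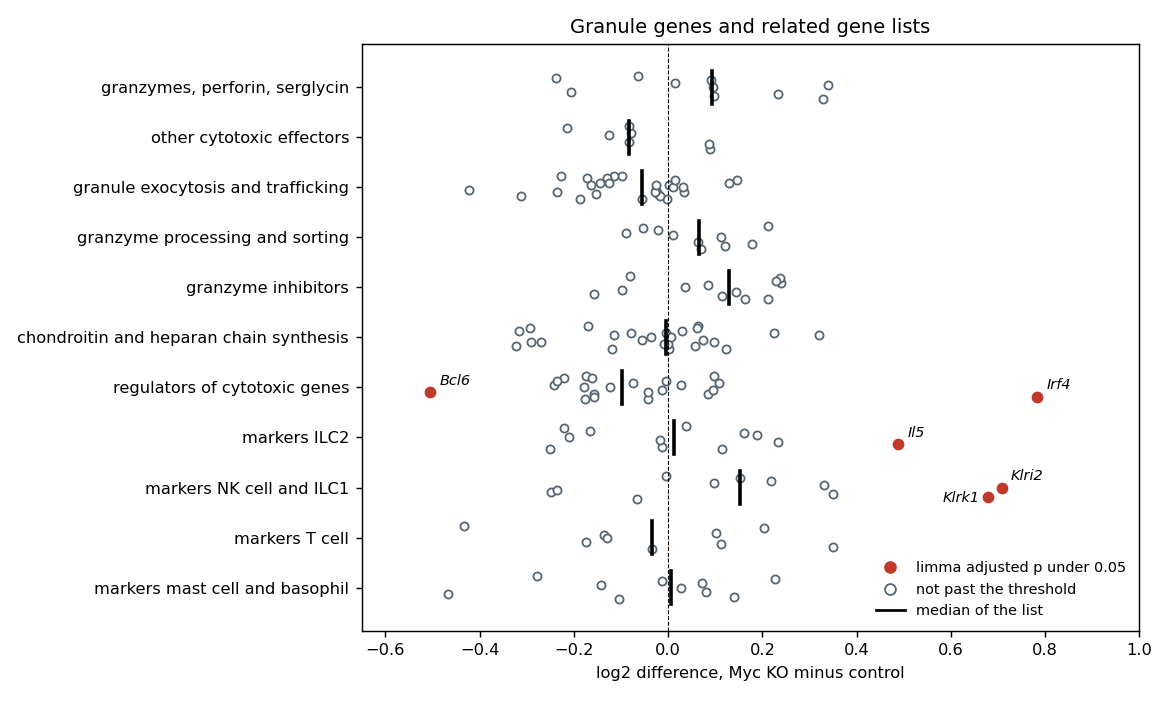
Log2 difference, arrays labelled Myc KO minus control (horizontal axis), of each gene of the granule set and of 10 related lists (vertical axis, spread within a row for legibility only), 3 arrays per group. Filled red points passed limma's adjusted p under 0.05 over all genes, open points did not, and bars are list medians. No granule gene passed, while Irf4, Il5, Klri2 and Klrk1 rose and Bcl6 fell.

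Markers of other cells that carry cytotoxic or related granules were mostly dim. The mean log2 level of 11 NK cell and ILC1 markers was 3.32 to 3.42 on the arrays labelled Myc KO and 3.16 to 3.22 on the control arrays. Ncr1, which encodes the receptor NKp46 of NK cells and ILC1s, averaged 2.04 on the arrays labelled Myc KO and 1.82 on the control arrays, below the lower quartile (RMA values have no zero). Eomes, a marker of NK cells, averaged 1.90 over all arrays. Of the 11, 2 rose and 0 fell, beside 0.254% and 0.198% of all genes, in a list chosen with earlier results of these data known. Without adjustment 4 were higher (Klri2, Klrk1, Klrd1 and Ncr1) and 1 lower (Itga2) at p under 0.05 in limma, beside 6.97% and 7.91% of all genes. Klrd1, which encodes CD94, had a log2 difference of 0.35 ± 0.084 (SE) with groups that did not overlap, and that of Ncr1 was 0.22 ± 0.084 (SE) with overlapping groups. Neither passed (limma's adjusted p = 0.148 and 0.308). Klri2 and Klrk1, which encode lectin-like receptors, rose 1.63-fold and 1.60-fold (limma's adjusted p = 0.0397 and 0.0473). Klri2 averaged 3.66 ± 0.13 on the arrays labelled Myc KO and 2.95 ± 0.10 on the control arrays, and Klrk1 averaged 3.76 ± 0.038 on the arrays labelled Myc KO and 3.08 ± 0.17 on the control arrays, all close to the array medians. Klri2 has a close paralog and its value is uncertain. Itga2, the brightest of this list, differed by −0.25 ± 0.081 (SE) and did not pass. Of the 11 differences 7 were positive and 4 negative, the negative ones being Itga2, Tbx21 (−0.24), Cd244a (−0.066) and Klrb1c (−0.0048). The mean level of this list was higher on the arrays labelled Myc KO, as was Gzma. The list's median log2 difference was 0.15, beside 0.0077 for all genes. The groups did not overlap for 3 of the 11 in the higher direction and 1 in the lower, beside 9.25% and 10.6% of all genes. The part of this list in the Gzma values was not tested.

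The 9 T cell markers had a mean level of 2.98 to 3.11 on the arrays labelled Myc KO and 3.02 to 3.11 on the control arrays, with 0 past limma's threshold. At an unadjusted p under 0.05, 0 were higher and 1 lower. Of the 9 markers 3 averaged above the array medians over all arrays, namely Cd3g, Cd8a (4.83) and Cd28 (3.47), and 6 below them, among them Cd3e (2.07), Cd3d (2.63), Cd4 (2.18) and Cd8b1 (2.44). Cd3g, the brightest, averaged 5.04 ± 0.19 on the arrays labelled Myc KO and 5.47 ± 0.19 on the control arrays. The 10 mast cell and basophil markers had a mean level of 2.94 to 3.03 on the arrays labelled Myc KO and 2.96 to 3.07 on the control arrays, with 0 past limma's threshold. At an unadjusted p under 0.05, 1 was higher and 1 lower. The high-affinity IgE receptor genes Fcer1a (1.17) and Ms4a2 (1.75) and the carboxypeptidase gene Cpa3 (1.503) averaged below the lower quartile over all arrays. Of the 10 markers 2 averaged above the upper quartile of all genes and 5 below the lower quartile. The 2 were Mcpt8 and Hdc, the histidine decarboxylase gene, which averaged 5.69 ± 0.45 on the arrays labelled Myc KO and 5.97 ± 0.17 on the control arrays (SD, n = 3 each) with overlapping groups. Ms4a2 had the smallest p of that list, with a log2 difference of 0.23 ± 0.063 (SE, limma's adjusted p = 0.190).

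The 5 calls named among the related genes (Irf4, Bcl6, Il5, Klrk1 and Klri2) each rested on all 6 arrays. With any 1 array left out, limma's adjusted p of these genes lay between 0.0887 and 0.183 and none passed, while their directions stayed the same.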

How the data were processed

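Total RNA of 6 samples, 3 labelled Myc KO and 3 control by their titles, was measured on Affymetrix arrays. The deposited log2 values were made by the authors with RMA, per the submitters' processing notes, which also name limma 3.14.4. RMA removes a shift of all transcripts together. Array version, probe set definition and build were not stated in the sources used here. The number of arrays limits the precision. Of 25206 probe sets, 23185 had 1 symbol in the platform annotation, 0 several and 2021 none (unnamed here).

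Differences were fitted over all 23185 genes in R 4.3.3 with limma 3.58.1 (lmFit, eBayes), without filter or covariate, two-sided, with Benjamini-Hochberg adjustment and a threshold of 0.05. The fit was tested on simulated data. Lists of related genes held 161 entries, 155 of them measured; they are described by counts and medians. The members, lists and motifs were chosen with earlier results of these data known. The naming rule took all members, further granzymes, Myc and, of each list, the genes past the threshold or else that with the smallest p, and the brightest. Ctsc, Serpinb9, Sytl1, Unc13d, Papss1, Runx3, Tbx21, Eomes, Nkg7, Ifng, Fasl and the cell type markers outside that rule were added after values were seen. Promoter windows (300 bases, RefSeq, GRCm38.p6) were found for all 10 members by gene number and aligned with Biopython 1.88 (match 1, mismatch −1, gap opening −2, extension −0.5). Alternatives were a replicate block, other scalings, prior variances, filters, array weights and each array left out. Figures were drawn with matplotlib 3.10.9.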

Additional observations from a re-analysis of the deposited data

How the results depend on the processing

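The count of granule genes past the threshold was 0 higher and 0 lower under all 14 alternatives. At an unadjusted p under 0.05 in limma, 2 were higher and 1 lower in the fit as reported. The log2 difference of Gzmb, 0.014, changed sign after median centring (−0.010), after cyclic loess (−0.020), without Myc KO replicate 3 (−0.026) and without control replicate 3 (−0.0065). With 1 array left out, it ran from −0.026 to 0.043 for Gzmb, from −0.17 to 0.049 for Gzmd (positive without control replicate 2) and from −0.21 to 0.0096 for Gzmn (positive without Myc KO replicate 2). The other 8 members kept their direction, Gzmc to Gzmg not being run among genes at or above the median. Arrays with equal replicate numbers showed no shared deviation. Deviations from the group means correlated at −0.070, −0.012 and −0.017 for equal numbers and at −0.027 to 0.042 for unequal ones. These values cannot show whether the arrays were paired by design. With the replicate block, 0 genes rose and 0 fell over the whole table, against 59 and 46, and 0 and 0 among the related genes, against 4 and 1. When limma's prior variance followed the intensity, 162 rose and 208 fell over the table, and 4 of the related genes fell. Among genes at or above the median, 204 rose and 345 fell, and 4 of the related genes fell. Leaving out 1 array gave 0 to 2 genes higher and 0 to 1 lower over the table, and 0 to 0 in either direction among the related genes. Il5 missed the threshold after median centring and Klrk1 with array weights (limma's adjusted p = 0.05005 and 0.0500014), and Myc passed among genes at or above the median (0.0487). The scalings moved the median of all genes by −0.024 and −0.011. Brightness limits Gzmc to Gzmg, Gzmm and Gzmn, for which a lack of change cannot be read.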

Other observations

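Gzma was compared with all other named genes for the likeness of its pattern over the 6 arrays, measured as the root mean square difference between each gene's deviations from its own mean. The most alike genes were Slc30a1, a zinc exporter gene (0.029), the olfactory receptor gene Olfr1002 (0.031), Ywhaz, a 14-3-3 protein gene (0.037), the olfactory receptor gene Olfr994 (0.050) and Zfand2a, a zinc finger gene (0.054). Slc30a1 averaged 5.25 ± 0.15 on the arrays labelled Myc KO and 4.91 ± 0.085 on the control arrays (SD, n = 3 each). Both olfactory receptor genes were at background, with means of 1.06 and 1.298 over all arrays. None of the 5 passed limma's threshold (adjusted p between 0.175 and 0.296).

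Equal values recur in the deposited table. Of 23185 genes, 8993 (38.8%) had exactly the same value on at least 2 arrays, 49.6% of those below the lower quartile of means and 20.5% of those above the upper quartile. Gzmf, Gzmg and Srgn were such members among the 10. The origin of these ties was not tested.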
